A study of Mus musculus with 16 samples.

Results

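The Hox genes of all 4 clusters, 38 genes in all, were followed in mouse E14 embryonic stem (ES) cells transfected with a control plasmid or with a DNA-binding protein engineered to recognise the gene Ptn. Members were chosen by name alone: every protein-coding gene of the Hoxa, Hoxb, Hoxc and Hoxd clusters with a probe on the array, 38 of the 20972 genes with a probe, read by 42 probes. A further 1 Hox gene on the array was not analysed here. Cluster A gave 10 members, cluster B 10, cluster C 9 and cluster D 9.

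Hox genes code for homeodomain transcription factors that lay down position along the body axis. Within a cluster the genes at the 3′ end act earliest and towards the head, and those at the 5′ end act latest and towards the tail, the limb tips and the genitalia. In undifferentiated ES cells the clusters are known as a textbook case of genes held silent by Polycomb complexes in chromatin that also carries activating marks, and retinoic acid and Cdx proteins are known to open them during differentiation.

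All groups were E14 cells grown in serum with LIF, the cytokine that keeps ES cells undifferentiated, and all were transfected with plasmid by lipofection. The EGFP group received green fluorescent protein alone. The other 3 groups received a TALE, a DNA-binding protein built to a chosen sequence, named for Ptn, a gene for a secreted growth factor. Ptn_VP64 fused the TALE to the transcriptional activator VP64 and Ptn_DEL fused it to DEL, known as a short acidic peptide that loosens chromatin. What Ptn_Delta carries is not stated in the labels. Cells were sorted on eGFP at 24 h and their polyadenylated RNA was taken at 48 h. Each group had 4 one-colour Agilent arrays, which the labels describe as 2 biological and 2 technical replicates without saying which is which. The p-values below therefore measure the spread between these samples, part of which is technical. Replicates 1 and 2 of every group lay on slide 1, and 3 and 4 on slide 2. Each group kept the same position along both slides, so position and construct cannot be told apart.

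A spot counted as detected when Feature Extraction, the scanner software, called it well above background. The log2 level is the log2 ratio of a spot's processed signal to a scaling signal, the 75th percentile on that array of the 9220 probes detected on all 16 arrays. A level of 0 therefore equals that percentile, which stood for a signal of 5990 to 28000 across arrays. Between 27.1 and 43.8% of spots were detected, and between 1.87 and 16.5% were marked as uneven or as outliers and left out. Between 0.487 and 35.1% lay in dim or bright patches of the array. This share was 15.4 to 35.1% on slide 1 and 0.487 to 12.9% on slide 2. Levels of spots that were not detected have no order among themselves. On several arrays many of them shared 1 lowest value. It was -8.17 on EGFP replicate 1, -8.72 on EGFP replicate 3 and -10.11 on Ptn_Delta replicate 4. Such a shared value differs between arrays and is not a reading of the gene. Not all undetected spots lay near background. The undetected Hoxd4 spot on Ptn_Delta replicate 2 had a signal of 1000, where the 95th percentile of negative control spots was 381. Of 12 ES cell markers, 11 were detected on all 16 arrays with marked spots kept and 2 with marked spots left out, where Nanog and Zfp42 were each detected on 10. Ptn itself was detected on 3 Ptn_VP64 and 3 EGFP arrays, counting unmarked spots of any of its probes. Its level was taken from 1 probe, that with the highest mean. This probe read -0.99 on the 1 Ptn_VP64 array where its spot was unmarked and -5.83 ± 0.28 (SD, n = 4) after EGFP. The other 3 Ptn_VP64 spots were marked and read -1.77, -1.09 and -2.06, so all 4 lay above the EGFP values of -6.09 to -5.48. The fitted difference, with 1 Ptn_VP64 array used, was 4.84 ± 1.02 (SE, limma adjusted p = 0.658 over all genes).

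The 5′ part of the Hoxd cluster and Hoxd4 are shown first, because Hoxd4, Hoxd8, Hoxd9, Hoxd10 and Hoxd13 carried signal on Ptn_VP64 arrays while Hoxd12, which lies between Hoxd13 and the others, was detected on none of the 16 arrays. Each line holds the 250 bases before the transcription start on the plus strand, written 5′ to 3′, from the RefSeq promoter table of GRCm38.p6, with every CG in capitals. The windows lie at chr2:74667975-74668224 for Hoxd13, chr2:74674763-74675012 for Hoxd12, chr2:74691641-74691890 for Hoxd10, chr2:74697513-74697762 for Hoxd9, chr2:74704365-74704614 for Hoxd8 and chr2:74721728-74721977 for Hoxd4.
Hoxd13: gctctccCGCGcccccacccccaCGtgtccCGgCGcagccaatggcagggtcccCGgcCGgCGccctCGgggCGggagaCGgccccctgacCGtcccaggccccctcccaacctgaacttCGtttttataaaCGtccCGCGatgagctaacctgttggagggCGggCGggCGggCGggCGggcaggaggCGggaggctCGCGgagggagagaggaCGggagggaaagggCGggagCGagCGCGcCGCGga
Hoxd12: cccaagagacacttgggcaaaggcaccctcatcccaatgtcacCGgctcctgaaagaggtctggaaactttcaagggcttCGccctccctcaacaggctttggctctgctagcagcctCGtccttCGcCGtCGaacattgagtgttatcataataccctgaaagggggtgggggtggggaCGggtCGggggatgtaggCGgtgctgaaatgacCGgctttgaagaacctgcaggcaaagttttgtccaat
Hoxd10: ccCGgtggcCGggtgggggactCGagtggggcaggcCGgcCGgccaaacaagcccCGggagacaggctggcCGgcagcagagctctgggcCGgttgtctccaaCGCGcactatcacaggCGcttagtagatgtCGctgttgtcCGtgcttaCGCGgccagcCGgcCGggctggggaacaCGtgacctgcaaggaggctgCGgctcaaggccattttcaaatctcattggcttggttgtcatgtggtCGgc
Hoxd9: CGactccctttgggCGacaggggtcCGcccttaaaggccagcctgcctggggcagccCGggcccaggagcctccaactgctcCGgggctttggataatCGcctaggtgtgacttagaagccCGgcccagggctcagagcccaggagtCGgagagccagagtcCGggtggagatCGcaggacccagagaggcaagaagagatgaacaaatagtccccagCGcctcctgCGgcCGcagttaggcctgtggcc
Hoxd8: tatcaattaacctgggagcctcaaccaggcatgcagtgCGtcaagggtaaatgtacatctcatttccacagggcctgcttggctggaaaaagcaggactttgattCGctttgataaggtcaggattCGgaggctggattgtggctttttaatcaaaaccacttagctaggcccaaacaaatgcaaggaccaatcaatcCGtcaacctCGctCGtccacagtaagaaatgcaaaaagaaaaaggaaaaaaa
Hoxd4: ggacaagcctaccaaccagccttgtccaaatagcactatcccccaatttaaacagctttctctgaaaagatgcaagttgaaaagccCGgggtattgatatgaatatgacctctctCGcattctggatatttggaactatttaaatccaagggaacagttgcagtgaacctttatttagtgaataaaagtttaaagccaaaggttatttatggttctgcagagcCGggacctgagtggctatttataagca
These windows hold 31 CG in Hoxd13, 10 in Hoxd12, 20 in Hoxd10, 13 in Hoxd9, 6 in Hoxd8 and 3 in Hoxd4. Signal on Ptn_VP64 arrays was thus seen for genes with many and with few CG in the window, though Hoxd13 was detected in every group. Hoxd11, detected on 1 Ptn_VP64 array, had windows with 2 and 20 CG, which are not shown.

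The table held 24 windows for 22 of the 38 Hox genes. Their number of CG ran from 2 to 35 with a median of 12.5, against a median of 6 over all 32851 windows and 16 over 61 windows of other developmental genes that ES cells keep silent. Median GC content was 58.6% in the Hox windows and 52.4% over all windows. On either strand, TATAAA, the core of a TATA box, was found in 4 Hox windows (16.7%, against 12.4% of all windows). TTTATGG, a form of the site that Cdx proteins are known to bind, was found in 1, that of Hoxd4 (4.17%, against 2.43%). AGGTCA, the core letters bound by many nuclear receptors including those for retinoic acid, was found in 6 (25%, against 14%). TTTATGG shares its opening letters with TTTATA, which is TATAAA on the other strand, and a match is a description of the letters.

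Few Hox genes were detected in these cells. Of the 38, 19 were detected on no array, 11 on 1 to 3 arrays, and 8 on at least 4 of the 16 arrays, which was the minimum for the test. Over all 20972 genes, 60.2% met that minimum. The 8 were Hoxa3, Hoxa6, Hoxa9, Hoxb2, Hoxb9, Hoxb13, Hoxc13 and Hoxd13. Because each passed on the arrays where it was bright, they are not a fair sample of the family. Cluster D had 6 of 9 members detected on at least 1 array, cluster A 5 of 10, cluster B 5 of 10 and cluster C 3 of 9.

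The genes detected on no array came from all 4 clusters. They were Hoxa2, Hoxa4, Hoxa5, Hoxa10 and Hoxa13 of cluster A, Hoxb1, Hoxb3, Hoxb4, Hoxb5 and Hoxb8 of cluster B, Hoxc5, Hoxc6, Hoxc8, Hoxc10, Hoxc11 and Hoxc12 of cluster C, and Hoxd1, Hoxd3 and Hoxd12 of cluster D. Hoxb1, a hindbrain gene and an early responder to retinoic acid, was read by a probe spotted 10 times on each array and was detected on 4 arrays when marked spots were kept. With marked spots kept, 15 of the 38 genes were detected on no array. Hoxa13 and Hoxb3 each had 2 probes, neither of which was detected on any array. In bulk RNA, fewer cells that express a gene and less RNA per cell cannot be told apart, and a miss sets no level.

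**Figure D1:**
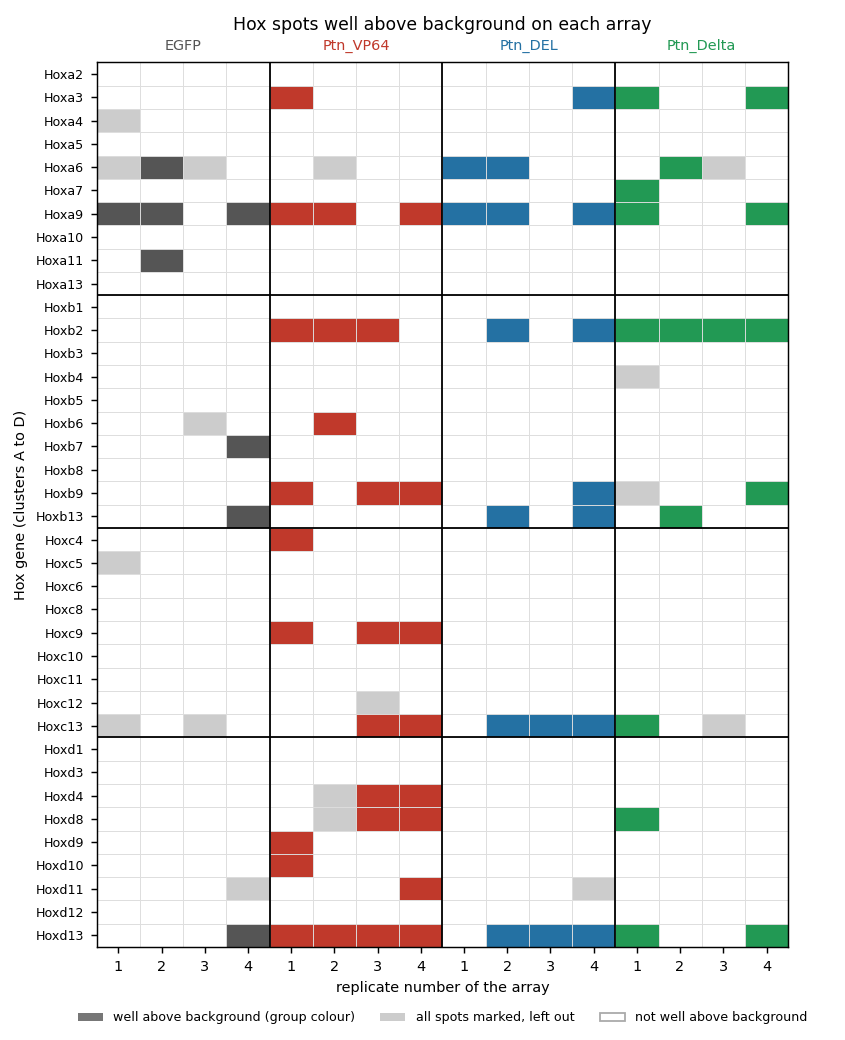
Rows are the 38 Hox genes by cluster and columns the 16 arrays by group and replicate number; a filled cell in the group's colour is a gene detected on that array, grey a gene whose spots were all marked and left out, and white a gene not detected. The rows of Hoxc9, Hoxd4 and Hoxd8 to Hoxd11 are filled in Ptn_VP64 columns, and in 1 Ptn_Delta column for Hoxd8, while 19 rows have no filled cell in any colour.

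By group total, detected Hox genes were most numerous on Ptn_VP64 arrays. The EGFP arrays, replicates 1 to 4, had 1, 3, 0 and 4 detected Hox genes. The Ptn_VP64 arrays had 9, 4, 7 and 8, the Ptn_DEL arrays 2, 6, 2 and 7, and the Ptn_Delta arrays 7, 3, 1 and 5. The lowest Ptn_VP64 count equalled the highest EGFP count, and the Ptn_DEL and Ptn_Delta counts overlapped both. Summed over 4 arrays and 38 genes, 18.4% of the 152 readings were detected after Ptn_VP64, 5.26% after EGFP, 11.2% after Ptn_DEL and 10.5% after Ptn_Delta. Detection over all genes moved too, from 39.6% of readings after EGFP to 46% after Ptn_VP64, 51% after Ptn_DEL and 50.1% after Ptn_Delta. The Ptn_VP64 figure took in replicate 2 at 30.1%, where 16.5% of spots were marked, beside 48.2, 51.8 and 53.9% on its other arrays. Single arrays ran from 44.9 to 55.2% after Ptn_DEL and from 44.3 to 54.5% after Ptn_Delta. With marked spots kept, the arrays held 3 to 7 detected Hox genes after EGFP, 8 to 9 after Ptn_VP64, 2 to 9 after Ptn_DEL and 3 to 11 after Ptn_Delta. With marked spots kept, the summed Hox level in percent of the scaling signal was 36.3 to 77.4 after EGFP and 17.2 to 60.8 after Ptn_VP64. It was 11.9 to 23.5 after Ptn_DEL and 8.84 to 35.9 after Ptn_Delta. Single marked spots, left out elsewhere, can carry much of such a sum. The marked Hoxa6 spot on EGFP replicate 3 read 7100, where the scaling signal was 16200. The sums therefore do not rank the groups. Detection among 79 other silenced developmental genes had a different order. It was 7.59% after EGFP, 16.1% after Ptn_VP64, 16.8% after Ptn_DEL and 20.3% after Ptn_Delta. The part of array sensitivity in these counts was not tested.

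**Figure D2:**
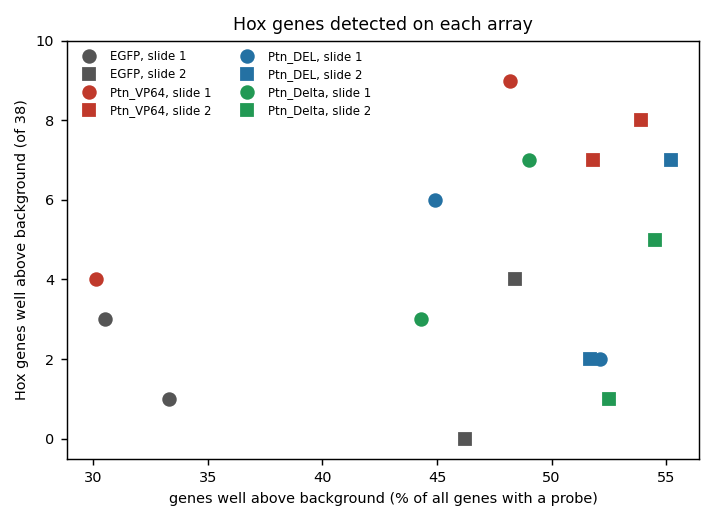
Each point is an array; the horizontal axis is the percent of all genes with a probe that were detected on it, the vertical axis the number of the 38 Hox genes detected, colours mark the group and shapes the slide. The Ptn_VP64 arrays carry 4 to 9 Hox genes and the EGFP arrays 0 to 4, and the 3 leftmost arrays, those with the fewest genes detected, are 2 of EGFP and 1 of Ptn_VP64.

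Hoxc9 and Hoxd4 were detected on at least 2 arrays of Ptn_VP64 and on no array of another group, a pattern chosen after the values were seen and described without a test. They are 5.26% of the Hox genes, against 77 of all 20972 genes (0.367%). No Hox gene had the same pattern for EGFP (0.0429% of all genes), Ptn_DEL (0.1%) or Ptn_Delta (0.477%). Of the 79 other silenced developmental genes 1, the homeobox gene Dlx2, had it for Ptn_VP64 and none had it for another group. The pattern rests on single arrays: without Ptn_VP64 replicate 3 or replicate 4 it held 1 Hox gene, and without Ptn_Delta replicate 1 it held 3. With detection set instead at the 95th percentile of the negative control spots, 5 Hox genes had it (Hoxc4, Hoxc9, Hoxd9, Hoxd10 and Hoxd11), against 0.467% of all genes, and Hoxd4 did not. On replicates 3 and 4 that limit was 352 and 214 after EGFP but 72.3 and 66.6 after Ptn_VP64. It was 71.1 to 85.2 on those of Ptn_DEL and Ptn_Delta. The Hoxd10 signals of 80.8 and 88.3 on Ptn_VP64 replicates 3 and 4 would not have passed after EGFP.

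Hoxc9 patterns the thoracic trunk and sets the fate of thoracic motor neurons. Its log2 level after Ptn_VP64 was -6.01, -8.15, -6.35 and -6.65 on replicates 1 to 4, detected on replicates 1, 3 and 4. After EGFP it was -8.17, -8.52, -8.72 and -9.36, with no array detected. Ptn_DEL gave -9.38, -10.86, -8.94 and -9.74 and Ptn_Delta gave -9.86, -10.6, -9.18 and -10.11, again with no array detected. The -8.17 and -8.72 after EGFP, -9.74 after Ptn_DEL and -9.86 and -10.11 after Ptn_Delta were each shared with other Hox genes. The 3 detected values stood above every value of the other groups, and replicate 2, not detected, cannot be ordered against them. Since the other groups had no detected spot, only a rough ratio can be given. It sets the Ptn_VP64 mean, undetected spots included, against each array's weakest detected signal or the spot's own value, whichever was higher. It is not a strict lower bound, because undetected spots can read above the weakest detected signal. On Ptn_DEL replicate 2 that signal was 14.8, while the undetected Hoxd8 spot read 410. With 3 of 4 Ptn_VP64 arrays detected, this ratio for Hoxc9 was 1.15 against EGFP, 2.37 against Ptn_Delta and 2.36 against Ptn_DEL. In a fit with no filter on dim probes the limma adjusted p was 1 in each of these comparisons.

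Hoxd4, a gene of the hindbrain and neck vertebrae that retinoic acid is known to induce, was detected on Ptn_VP64 replicates 3 and 4 at -6.12 and -6.31. Its value on replicate 1 was -7.31, not detected, and the spot on replicate 2 was marked and left out. After EGFP it was -7.54, -6.05, -7.68 and -8.57, after Ptn_DEL -7.47, -6.27, -8.99 and -8.87, and after Ptn_Delta -7.89, -4.46, -7.74 and -8.08, none detected. The groups overlapped. From 3 spots of which 2 were detected, the same rough ratio of Ptn_VP64 was 1.1 against Ptn_Delta and 1.28 against Ptn_DEL, with none above 1 against EGFP.

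Hoxd8, a trunk gene, was detected on the same 2 Ptn_VP64 arrays at -4.77 and -5.81, read -6.82 on replicate 1, and its spot on replicate 2 was marked. It was also detected on Ptn_Delta replicate 1, at -7.46. After EGFP it was -8.17, -6.03, -7.95 and -9.21 and after Ptn_DEL -7.42, -5.85, -7.89 and -9.74, none detected. The Ptn_VP64 values overlapped those of EGFP and Ptn_DEL through replicate 1. The rough ratio of Ptn_VP64 was 1.55 against EGFP and 2.04 against Ptn_DEL, from the 3 unmarked Ptn_VP64 spots, of which 2 were detected.

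Hoxd9, Hoxd10 and Hoxd11, known for patterning the lumbar and sacral spine and the upper segments of the limbs, were each detected on 1 Ptn_VP64 array and on no other. Hoxd9 read -6.2, -7.66, -6.89 and -7.7 after Ptn_VP64, with replicate 1 detected, against -8.17 to -9.63 after EGFP, -8.93 to -9.74 after Ptn_DEL and -8.8 to -10.6 after Ptn_Delta. Hoxd10 read -7.08, -7.11, -7.77 and -7.68 after Ptn_VP64, with replicate 1 detected, and -8.17, -7.59, -8.72 and -9.68 after EGFP. Hoxd11 read -7.26, -6.6, -6.93 and -7.13 after Ptn_VP64, with replicate 4 detected, and -7.86, -7.81 and -8.72 on the 3 EGFP arrays with an unmarked spot. For each gene the 1 detected value stood above the values of the other groups, and the undetected values have no order. With 1 detected array no rough ratio is given, and the other Hoxd11 probe was detected on no array.

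**Figure D3:**
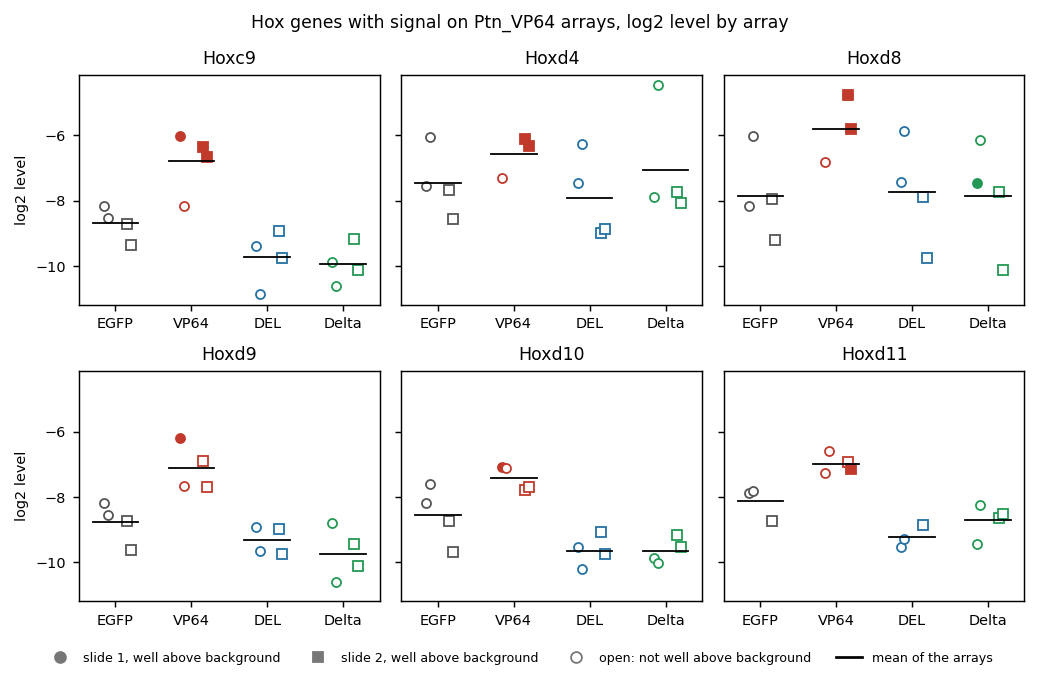
The panels are a selection of the Hox genes detected on Ptn_VP64 arrays, namely Hoxc9, Hoxd4, Hoxd8, Hoxd9, Hoxd10 and Hoxd11. Hoxa3, Hoxa9, Hoxb2, Hoxb6, Hoxb9, Hoxc4, Hoxc13 and Hoxd13 were also detected on Ptn_VP64 arrays and are not among the panels. The log2 level of each array is on the vertical axis by group. Filled points were detected, open points were not, circles are slide 1, squares slide 2 and the bar is the mean of the arrays. Filled points lie in Ptn_VP64 except for 1 of Hoxd8 in Ptn_Delta, which follows from the choice of genes shown. The open points of the other groups have no order.

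The remaining genes on 1 to 3 arrays showed no common group. Hoxc4, of the neck and upper trunk, was detected on Ptn_VP64 replicate 1 at -6.77, and Hoxb6 on Ptn_VP64 replicate 2 at -5.99. Hoxa7 was detected on Ptn_Delta replicate 1 at -7.22. Hoxb7 was detected on EGFP replicate 4 at -4.61, where the other EGFP arrays read -8.17, -7.11 and -8.72. Hoxa11, a gene of the forearm and kidney, was detected on EGFP replicate 2 at -6.67. Of these 5 genes, 2 were thus seen in Ptn_VP64, 2 in EGFP and 1 in Ptn_Delta.

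A fit without the filter on dim probes covered all 38 Hox genes. It takes in values that have no order, among them lowest values shared by many genes of an array, so its counts describe these arrays. Unadjusted p was under 0.05 with a higher level after Ptn_VP64 for 6 Hox genes against Ptn_Delta (15.8%, against 1.71% of all genes), which were Hoxc9, Hoxd9, Hoxd10, Hoxd11, Hoxb4 and Hoxc10. Against Ptn_DEL there were 4 (10.5%, against 1.02%), namely Hoxc9, Hoxd9, Hoxd10 and Hoxd11, and against EGFP there were 2 (5.26%, against 2.43%), Hoxc9 and Hoxd9. No Hox gene was higher in this way after Ptn_DEL than after EGFP (1.31% of all genes), after Ptn_Delta than after EGFP (1.58%) or after Ptn_DEL than after Ptn_Delta (0.391%), and Hoxb7 was lower after Ptn_Delta than after EGFP, by -2.04 ± 0.82. None passed in limma after adjustment, the lowest adjusted p of a Hox gene in the 6 comparisons being 0.69.

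The 8 genes that met the minimum were compared between groups with limma over all genes. Arrays of a group were averaged into 2 samples in each of the 3 possible pairings. Each fitted difference and SE is that of the pairing with the largest p. Where spots are missing, it can depart from the difference between the group means. No Hox gene passed in any of the 6 comparisons, and neither did any gene at all (0% called in each). All 8 genes had an adjusted p of 1 in every comparison. A count of 0 does not show that genes stayed the same. At an unadjusted p under 0.05 in limma, 1 Hox gene was found in Ptn_VP64 against EGFP, Hoxd13 (3.96% of all genes), and 0 in Ptn_DEL against EGFP (1.9%), Ptn_Delta against EGFP (2.65%), Ptn_VP64 against Ptn_Delta (2.6%), Ptn_VP64 against Ptn_DEL (1.63%) and Ptn_DEL against Ptn_Delta (0.333%). Fits of the 16 unaveraged arrays, with the slide as a term or on patch-corrected levels, also called 0 Hox genes in limma, while they called 15 and 383 of all genes in Ptn_VP64 against EGFP, counting technical repeats as replicates. The comparisons against EGFP share the EGFP arrays. EGFP had no detected spot of Hoxa3, Hoxb2, Hoxb9 or Hoxc13, and Ptn_VP64 had none of Hoxa6 or Hoxb13, so fitted differences that involve those groups are set against background and do not measure a fold. The rough ratio of Ptn_VP64 to EGFP was not above 1 for Hoxa3 or Hoxb9.

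Hoxd13, the gene at the 5′ end of its cluster that shapes digits and genitalia, was detected on 10 arrays, all 4 of Ptn_VP64 among them. Its level after Ptn_VP64 was -6.79, -6.06, -6.23 and -6.45. After EGFP it was -7.57, -7.48, -8.72 and -6.88, with replicate 4 detected. After Ptn_DEL it was -7.97, -7.19, -6.67 and -6.98, with the last 3 detected, and after Ptn_Delta -7.46, -7.65, -7.37 and -7.28, with replicates 1 and 4 detected. Every Ptn_VP64 value lay above every EGFP value (8.72% of all genes tested did so) and every Ptn_Delta value (4.17%), while Ptn_DEL overlapped. Most of those EGFP values and some of the Ptn_Delta values were not detected and have no order. Hoxd13 stood above the 95th percentile of the negative control spots on 6 arrays. On Ptn_VP64 replicates 1 and 2 its signals of 244 and 198 lay under that limit, at 349 and 256. Ptn_VP64 was higher than EGFP by 1.28 ± 0.55 (limma adjusted p = 1), by 1.1 on slide 1 and 1.46 on slide 2. The difference from Ptn_Delta was 1.06 ± 0.55 and that from Ptn_DEL was 0.82 ± 0.55 (limma adjusted p = 1 in both). Against EGFP it was 0.42 with normexp background correction, 0.59 with patch correction and 0.82 without EGFP replicate 3, none of which passed.

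Hoxb9, a gene of the thoracic wall and mammary gland, was detected on 5 arrays, 3 of them Ptn_VP64. After Ptn_VP64 it read -6.24, -6.31, -6.67 and -7.12, with replicate 2 not detected. After EGFP it read -7.68, -6.4, -7.51 and -8.97, none detected, after Ptn_DEL -7.39, -7.64, -7.91 and -7.2, with replicate 4 detected, and on the 3 unmarked Ptn_Delta spots -8.58, -7.87 and -7.38, the last detected. The Ptn_VP64 values lay above all those of Ptn_DEL (3.59% of all genes tested) and of Ptn_Delta, most of which were not detected, and overlapped EGFP. The difference was 1.05 ± 0.65 from EGFP, 0.95 ± 0.65 from Ptn_DEL and 1.22 ± 0.64 from Ptn_Delta (limma adjusted p = 1 in each). Against EGFP it was 0.41 without EGFP replicate 4, 0.28 with normexp and 0.33 with patch correction. Against Ptn_Delta it was 0.42 with marked spots kept and 0.73 without Ptn_Delta replicate 2.

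Hoxb2, a hindbrain gene, was detected on 9 arrays, none of them EGFP. After EGFP it read -7.34, -8.1, -7.88 and -8.35. After Ptn_VP64 it read -7.15, -3.62, -6.49 and -8.3, the first 3 detected, after Ptn_DEL -9.54, -7.75, -6.76 and -7.01, with replicates 2 and 4 detected, and after Ptn_Delta -5.95, -7.92, -7.06 and -7.04, all detected. The groups overlapped, and Ptn_VP64 replicate 2 stood well above the rest of its group. The fitted difference from EGFP was 1.53 ± 0.9 after Ptn_VP64, 0.15 ± 0.9 after Ptn_DEL and 0.93 ± 0.9 after Ptn_Delta (limma adjusted p = 1 in each). Without Ptn_VP64 replicate 2 the first fell to 0.36, and with normexp background correction it was -0.16.

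Hoxc13, which drives hair and nail keratins, was detected on 6 arrays. After Ptn_VP64 it read -6.7, -8.23, -4.97 and -4.65, the last pair detected, and after Ptn_DEL -7.26, -5.5, -5.94 and -6.76, the last 3 detected. EGFP rested on the 2 unmarked spots of replicates 2 and 4, at -7.41 and -7.49, and Ptn_Delta read -5.25, -5.54 and -10.11 on 3 arrays with the first detected. All Ptn_DEL values lay above both EGFP values (5.19% of all genes tested). No Hox gene lay above EGFP on every Ptn_Delta array (5.8%). The fitted difference from EGFP was 1.31 ± 1.61 after Ptn_VP64, 1.08 ± 1.61 after Ptn_DEL and -0.31 ± 1.61 after Ptn_Delta. The last departs in sign from the means, which were -6.97 after Ptn_Delta and -7.45 after EGFP, with spots missing in both. With the marked EGFP spots kept, the difference was -0.86 after Ptn_VP64 and -1.76 after Ptn_DEL. None of the 3 constructs thus had a settled direction.

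Hoxb13, a tail and prostate gene, was, like Hoxa6, detected on no Ptn_VP64 array. It read -8.89, -7.67, -9.09 and -9.61 after Ptn_VP64 and -8.17, -6.45, -8.26 and -6.85 after EGFP, with EGFP replicate 4 detected. After Ptn_DEL it read -9.54, -4.53, -7.16 and -6.7, with replicates 2 and 4 detected, and after Ptn_Delta -9.86, -4.09, -7.6 and -10.11, with replicate 2 detected. Its values ran from -10.11 to -4.09 within Ptn_Delta alone. The difference from EGFP was -1.38 ± 1.3 after Ptn_VP64, 0.45 ± 1.3 after Ptn_DEL and -0.48 ± 1.3 after Ptn_Delta, none of which passed.

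The 3 cluster A genes did not pass in any comparison, and their groups overlapped. Hoxa9, which is known from blood progenitors and leukaemia, was detected on 11 arrays spread over all groups, at -5.85, -4.8, -8.72 and -6.98 after EGFP and -6.82, -5.05, -7.33 and -7.07 after Ptn_VP64. Its means were -6.59 ± 1.68 after EGFP, -6.57 ± 1.03 after Ptn_VP64, -7.12 ± 0.46 after Ptn_DEL and -7 ± 0.54 after Ptn_Delta (SD, n = 4 arrays each), giving differences from EGFP of 0.02 ± 0.72, -0.53 ± 0.72 and -0.41 ± 0.72. The other Hoxa9 probe was detected on no array, so the gene rests on 1 probe. Hoxa3, a gene of the pharyngeal arches and thymus, was detected on 4 arrays, at -5.58 on Ptn_VP64 replicate 1, -6.53 on Ptn_DEL replicate 4, and -6.79 and -6.29 on Ptn_Delta replicates 1 and 4. Its differences from EGFP were -0.16 ± 0.83 after Ptn_VP64, -0.5 ± 0.83 after Ptn_DEL and 0.6 ± 0.83 after Ptn_Delta. Hoxa6, a thoracic gene, was detected on EGFP replicate 2 at -4.06, on Ptn_DEL replicates 1 and 2 at -4.93 and -6.1, and on Ptn_Delta replicate 2 at -4.61, all on slide 1. On slide 2 its unmarked spots read -8.31 to -9.56. The fitted differences from EGFP were -1.33 ± 1.64, -0.91 ± 1.64 and 0.03 ± 1.64 in the order Ptn_VP64, Ptn_DEL and Ptn_Delta, with 2 EGFP spots used. The last departs in sign from the means, which were -7.08 after Ptn_Delta and -6.5 after EGFP.

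**Figure D4:**
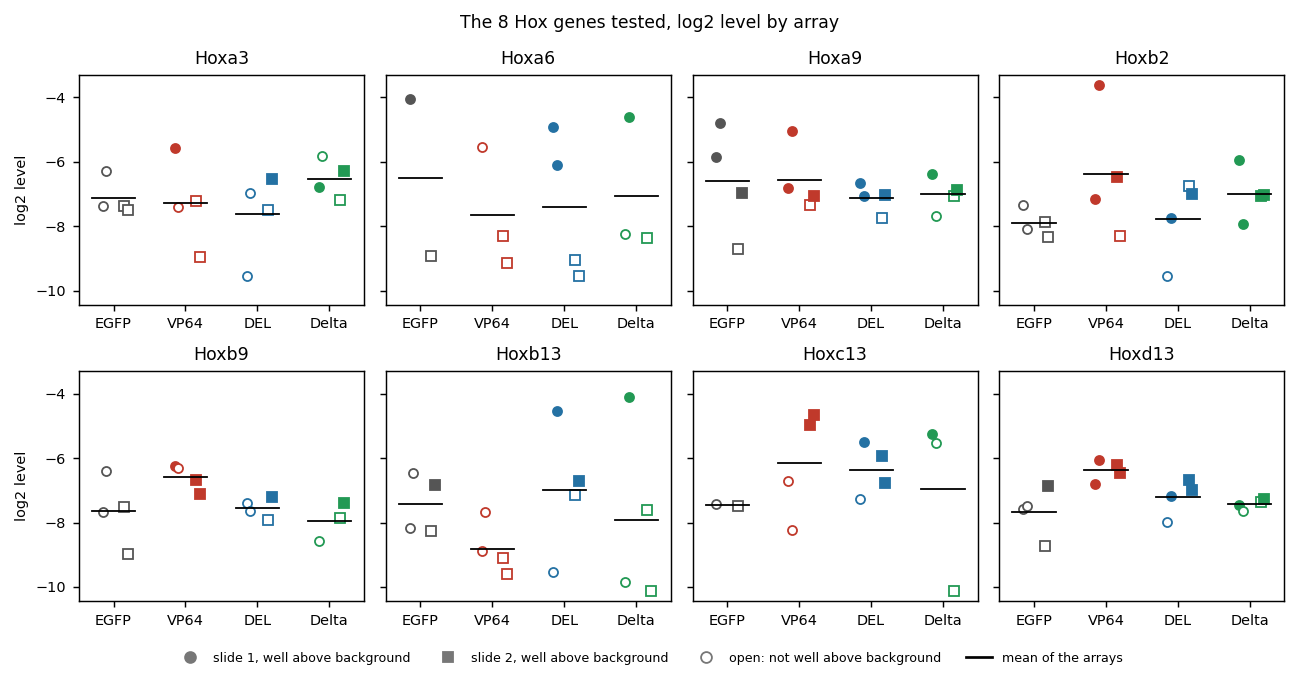
Each panel is one of the 8 Hox genes that met the minimum, with the log2 level of each array on the vertical axis by group; filled points were detected, open points were not, circles are slide 1, squares slide 2 and the bar is the mean of the arrays. Hoxd13 has all Ptn_VP64 points, -6.79 to -6.06, above all EGFP points, most of which are open. The other panels show groups that overlap or rest on few spots.

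Between Ptn_DEL and Ptn_Delta no Hox gene passed, the smallest p in limma being those of Hoxa3 (-1.1 ± 0.83), Hoxb2 (-0.78 ± 0.9) and Hoxb13 (0.94 ± 1.3), with an adjusted p of 1. The median difference of the 8 genes was 0.53 in Ptn_VP64 against EGFP, where the median of all genes was 0.08. It was 0.13 in Ptn_DEL against EGFP (0.08 for all genes) and -0.07 in Ptn_Delta against EGFP (0.02). The median was 0.42 in Ptn_VP64 against Ptn_Delta (0.05), 0.45 against Ptn_DEL (-0.01) and 0.08 in Ptn_DEL against Ptn_Delta (0.04). Background correction with normexp moved the Hox median to -0.46 in Ptn_VP64 against EGFP, with 2 of 8 differences positive where the standard levels gave 5, and moved the median of all genes in Ptn_Delta against EGFP to -0.42. Under quantile normalization the Hox median was 0.71 in Ptn_Delta against EGFP, with 7 of 8 positive, beside 0.76 in Ptn_VP64 against EGFP, and under normexp it was -0.97 with 0 of 8 positive. The medians against EGFP therefore have no settled order among the constructs. The medians of Ptn_VP64 against Ptn_Delta and Ptn_DEL stayed positive under the scalings tried, from 0.07 to 0.59 and from 0.28 to 0.79. These medians rest on genes that passed where they were bright and stand as description.

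**Figure D5:**
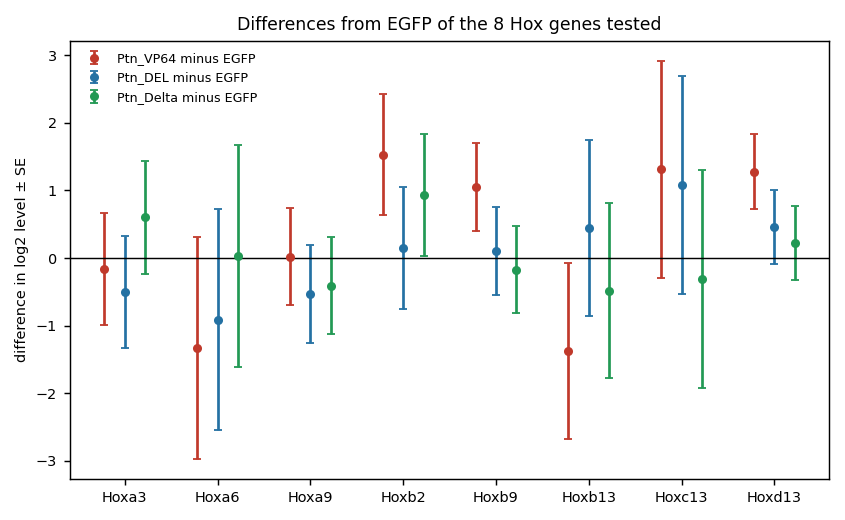
Points are fitted differences in log2 level from EGFP of the 8 Hox genes tested, with bars of 1 standard error, coloured by construct, and a line at 0. Each is from the pairing with the largest p. For Hoxa6 and Hoxc13 after Ptn_Delta its sign departs from that of the group means. The Ptn_VP64 differences run from -1.38 for Hoxb13 to 1.53 for Hoxb2, and most bars of the other constructs cross 0.

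Genes that act with or upon Hox genes were read from lists of the same arrays, with no gene called in limma in any list. In these lists too, a difference that involves a group with no detected spot is set against background and does not measure a fold. All 9 cofactors of the Pbx, Meis and Pknox families, which bind DNA together with Hox proteins, met the minimum. In Ptn_VP64 against EGFP 5 had a positive and 4 a negative difference, with a median of 0.27. Pknox2 differed by 1.3 ± 0.57 and Pbx3 by -0.75 ± 0.8. Of 22 genes of retinoic acid signalling and the Cdx family 16 met the minimum, 8 positive and 8 negative with a median of 0. Dhrs3, which reduces retinal, differed by 1.83 ± 0.66, and Aldh1a2, which makes retinoic acid, by 1.75 ± 0.69. Each was detected on 1 EGFP array, so both differences are set largely against background. The levels of Dhrs3 were -5.02 ± 0.38 after Ptn_VP64 and -6.85 ± 1.2 after EGFP (SD, n = 4 arrays each). Cdx1 was detected on 8 arrays and Cdx2 on 8, while Cdx4 was detected on none.

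Of 32 Polycomb genes, which code for the silencing complexes of Hox clusters, 30 met the minimum. There were 15 positive and 15 negative differences in Ptn_VP64 against EGFP, with a median of -0.02. Pcgf6 (-4.76 ± 0.88, adjusted p = 0.605 in limma) and Aebp2 (3.78 ± 0.93, adjusted p = 0.867 in limma) had the smallest p. Aebp2 also differed from EGFP by 3.84 ± 1.02 after Ptn_DEL and 3.55 ± 1.02 after Ptn_Delta. Pcgf6 differed by -0.57 ± 0.88 and 0.1 ± 0.51 there. Pcgf6 and Aebp2 rested on 2 Ptn_VP64 arrays and 3 EGFP arrays each. Of the trithorax list, the activating counterpart, 12 genes were tested, 4 positive and 8 negative with a median of -0.18 and none under 0.05, and Dpy30 (-1.25 ± 0.83), Kdm6a (-1.17 ± 0.89) and Ash2l (-0.51 ± 0.56) had the smallest p.

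Genes beside the clusters gave no shared direction. Of 14 neighbours 11 met the minimum, 5 positive and 6 negative in Ptn_VP64 against EGFP with a median of -0.39. Calcoco2 had an unadjusted p under 0.05 (1.54 ± 0.62), Skap2 differed by -1.3 ± 1.03 and Ttll6 by -0.75 ± 0.77. Ttll6 was detected on 0 arrays of both Ptn_VP64 and EGFP. Evx1, Evx2 and Skap1 were detected on no array, and Evx1 and Evx2 are homeobox genes at the 5′ ends of clusters A and D. Of the noncoding RNAs within the clusters 3 were on the array, detected in 3 readings in all and too few to test. Of the 79 other silenced developmental genes 18 met the minimum, 11 positive and 7 negative with a median of 0.2, with Msx2 at 3.22 ± 0.9 and Pax8 at -1.44 ± 0.81. Msx2 was detected on 0 EGFP arrays and Pax8 on 0 Ptn_VP64 arrays, so neither difference measures a fold.

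Markers of other cell types are given beside the Hox signals, and none passed in limma. All 7 trophoblast markers tested had a positive difference from EGFP, with a median of 3.11, and 5 had an unadjusted p under 0.05, led by Gata3 (3.11 ± 0.81), Krt18 (4.35 ± 1.38) and Krt19 (3.84 ± 1.3). On EGFP arrays Gata3 was detected 0 times and Krt18 and Krt19 on 2 arrays each, so the Gata3 difference does not measure a fold. Sums of marker levels are in percent of the array's scaling signal, with marked spots kept. That of the 9 trophoblast markers ran from 100 to 698 after Ptn_VP64 and 14.9 to 106 after EGFP. It ran from 48.8 to 209 after Ptn_DEL and 51.7 to 251 after Ptn_Delta. Against EGFP the median was 1.07 after Ptn_DEL, with 7 of 7 positive, and 1.42 after Ptn_Delta, with 5 of 7 positive. Elf5, which defines trophoblast stem cells, was detected on no array. The list holds Cdx2 and Eomes, and Cdx2 is also in the retinoic acid and Cdx list. Of 5 fibroblast markers tested 4 were positive, with a median of 0.46, led by Col1a1 (3.41 ± 1.09) and Col1a2 (2.35 ± 0.91), and Twist1 differed by -0.76 ± 0.81. Col1a1 was detected on 1 EGFP array and Col1a2 on 0, so the Col1a2 difference does not measure a fold. The fibroblast median was 0.35 after Ptn_DEL and 1.04 after Ptn_Delta. The summed level ran from 11.3 to 31.6 after Ptn_VP64 and 8.24 to 16 after EGFP, with Pdgfrb and Postn detected on no array.

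The other marker lists were mixed in Ptn_VP64 against EGFP. Endoderm markers had 4 positive and 2 negative differences with a median of 0.55, led by Dab2 (2.69 ± 0.69), and sums of 10.3 to 12.1 after Ptn_VP64 and 4.62 to 9.25 after EGFP. Dab2 was detected on 0 EGFP arrays, so its difference does not measure a fold. Neural markers had 3 positive and 2 negative differences with a median of 0.6, led by Sox1 (-2.88 ± 0.78), with overlapping sums of 17.1 to 24.5 and 10.8 to 32.7. Mesoderm markers had 2 positive and 1 negative differences with a median of 0.33, led by Eomes (1.47 ± 0.62), and sums of 4.68 to 15.4 and 5.34 to 17.6. ES cell markers had 2 positive and 10 negative differences with a median of -0.47 and none under an unadjusted p of 0.05, Fgf4 (-1.62 ± 1.14), Dppa3 (1.5 ± 1.22) and Dppa5a (-0.73 ± 0.7) having the smallest p. The sum of the ES cell markers ran from 1390 to 2230 after Ptn_VP64 and 2010 to 3720 after EGFP, and Dppa3 was detected on 0 EGFP arrays. The part of other cell types in the Hox signals was not tested.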

How the data were processed

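The members and the gene lists were chosen with earlier results of these data known. The authors deposited a Feature Extraction table for each of 16 Agilent one-colour arrays (NimbleGen scanner and mm9 annotation per the file headers, version 11.5.1.1). Its processed signal is an intensity that the software corrected for background and spatial trend, with no scaling across arrays, per the file headers, and its median spot and background signals are raw intensity. The authors' deposited series table holds log2 values with a median close to 6.32 on every array, each column following its own array's scanner values; their processing is not given in the sources used here, and they served as an alternative.

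Probes were named through RefSeq accessions matched to a GRCm38.p6 gene table: 27656 of 55681 probes had 1 symbol and 28025 none. Log2 processed signals were scaled to each array's 75th percentile over 9220 probes well above background on all 16 arrays. The 3671 control spots and marked spots were left out, spots of a probe averaged, probes well above background on at least 4 arrays kept, and the probe with the highest mean taken, giving 12605 genes. Arrays of a group were averaged into 2 samples in each of the 3 possible pairings, with slide as a term where it does not cancel, and fitted with limma 3.58.1 in R 4.3.3 over all 4 groups. The largest p of the 3 was adjusted by Benjamini-Hochberg over all genes and called under 0.05, two-sided. The difference and SE given are those of the pairing with that p. The procedure was tested on simulated data.

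Named were each Hox gene above the minimum, each on 1 to 3 arrays, in each comparison up to 3 Hox genes with the smallest p, and of every other list up to 3 members with the smallest p in Ptn_VP64 against EGFP, some of which are not reported here. Alternatives were other scalings, quantile normalization, normexp (offset 50, on the median spot signal, since the mean is not in the tables), marked spots kept, other filters, patch correction, single pairings, unaveraged arrays and leaving out each array. Patch correction subtracts the median local shift in windows of 21 by 21 spots and drops any spot whose local shift differs by over 1 log2 unit from the median shift. The number of arrays limits the precision.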

Additional observations from a re-analysis of the deposited data

Results flagged for a closer look

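Over 65 sets of 4 array levels for 19 Hox genes, 4 held an array far from the other 3, where chance alone gives about 1 in 20. In each of the 4 the far array was replicate 2 and stood higher, and its spot was not detected. Hoxa3 in EGFP read -6.3 on replicate 2 against -7.37 on the nearest array, a gap of 0.9 of the group's range. Hoxa7 in Ptn_DEL read -6.01 against -7.52, a gap of 0.88 of the range. Hoxc4 in Ptn_Delta read -6.31 against -9.4, a gap of 0.87 of the range. Hoxd4 in Ptn_Delta read -4.46 against -7.74, a gap of 0.9 of the range. No Hoxd4 spot of that group was detected, so its whole mean rests on undetected spots.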

How the results depend on the processing

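The count of called Hox genes was 0 in all 6 comparisons under each of 32 settings, leaving out each array included (0 to 0), with at most 6 genes at an unadjusted p under 0.05. Over 48 gene and comparison pairs, 1392 alternative values gave 155 changes of sign in 40 pairs, and no value passed in limma, the lowest adjusted p being 0.243. The number of Hox genes detected on enough arrays was 8 at a minimum of 4 arrays, 19 at a minimum of 1, 3 at a minimum of 8 and 6 to 8 when single arrays were left out. The Ptn_VP64 pattern of Hoxc9 and Hoxd4 held 2 genes. It held 5 with the negative control limit, Hoxc9 among them and Hoxd4 not, though on slide 2 that limit was higher after EGFP than after Ptn_VP64. The pattern held 1 to 3 when single arrays were left out. These detection alternatives and the unaveraged patch-corrected fit were chosen after seeing the data. The main fit did not pair arrays by replicate number. The correlation of deviations between arrays of the same number had medians of 0.04, 0.27, 0.15 and 0.09 for numbers 1 to 4. Between arrays of different numbers the median was -0.04. Single pairs of the same number were as low as -0.07, and 14 of 16 arrays correlated best with their own number. The fit with a replicate block called 0 Hox genes in each comparison, and 75 of all genes in Ptn_VP64 against EGFP. Most Hox readings were not detected, which limits every value here.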
